A study of Mus musculus with 6 samples.

Results

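Egr1, Egr2, Egr3, Egr4, Nr4a1, Nr4a2, Nr4a3, Npas4 and Arc are genes that neurons transcribe in response to synaptic activity. They were chosen by name, as every probe whose gene name in the array files is one of these 9, which gave 10 probes on 19 spots out of 55666 probes of 35010 genes. The arrays compared male BALB/c mice aged 8 weeks that had received 1 intranasal dose of PAMAM dendrimers (0.15 mg/kg) with mice given saline by the same route, and the olfactory bulb, hippocampus and cerebral cortex were taken after 24 h. PAMAM dendrimers are branched polyamidoamine nanoparticles, and saline is the vehicle control. Each of the 6 groups is 1 Agilent one-colour array hybridised with RNA pooled from 6 experiments, so no group has a measured spread between animals. The sources used here do not state if single mice gave tissue to more than 1 region.

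Immediate-early genes are transcribed by factors that are already present when a neuron fires, so their RNA appears without new protein synthesis and usually decays quickly. The Egr proteins are zinc-finger transcription factors, the Nr4a proteins are orphan nuclear receptors that also act as transcription factors, and Npas4 is a bHLH-PAS factor that responds selectively to calcium entry in neurons. Arc is not a transcription factor: its protein acts at synapses, where it promotes the removal of AMPA-type glutamate receptors. Odour input keeps many of these genes active in the olfactory bulb, and they serve widely as markers of recently active neurons in the hippocampus and cortex.

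In the olfactory bulb, every member measured on both arrays was lower with PAMAM. These were 8 of 8 genes, with a median log2 difference of -1.01, and 4 of them (Egr4, Nr4a3, Npas4 and Arc) were at least 2-fold lower. Among all 23286 genes measured there, 0.206% were at least 2-fold lower and 0.0515% at least 2-fold higher, the median difference was -0.01 and 52.7% were lower. A difference as low as the members' median was found in 0.202% of all genes. The members were chosen with earlier results of these data known, so these shares are no test of the set. With 1 array a group these differences have no test within a region. The other regions did not show this pattern: in the hippocampus 4 members were lower and 4 higher with a median of -0.02, a sign that turns with normexp background correction or without dim genes. In the cortex 2 were lower and 5 higher with a median of 0.07, a sign that turns with quantile normalisation. In bulk RNA, fewer cells of a type and less RNA per cell cannot be told apart.

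Levels are given as log2 of the background-corrected signal over the array's 75th percentile, so they can be set side by side for 1 probe and not between probes. The error beside a difference is a standard error from spot noise alone, estimated from probes spotted repeatedly on the same array, and it holds no variation between mice. A probe counted as measured in a region when it was well above background on both arrays. Probe positions are those of the array files, and the exon or UTR they lie in was not looked up here.

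Among the Egr factors measured in the bulb, Egr4 had the largest difference there. Its probe (mm9, chr6:85461153-85461212) had a level of 1.33 with PAMAM and 2.82 with saline in the olfactory bulb, 2.88 with PAMAM and 3.13 with saline in the hippocampus, and 3.83 with PAMAM and 3.85 with saline in the cortex. The bulb difference was -1.49 ± 0.075, which is 2.82-fold lower with PAMAM, against -0.25 ± 0.072 in the hippocampus and -0.02 ± 0.068 in the cortex, where the sign turns in the authors' deposited table. The bulb PAMAM array was thus the lowest of the 6 for Egr4, and the cortical arrays were nearly equal.

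Egr1, the most widely used activity marker of the family, had a level of 3.65 with PAMAM and 4.57 with saline in the bulb, 3.85 with PAMAM and 3.63 with saline in the hippocampus, and 5.12 with PAMAM and 5.06 with saline in the cortex. Its differences were -0.91 ± 0.068, 0.22 ± 0.069 and 0.07 ± 0.066 in that order of regions, the cortical sign turning with quantile normalisation. With saline the bulb lay above the hippocampus for Egr1, and with PAMAM it lay below.

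Egr2, a factor also known for its role in myelinating Schwann cells (probe at mm9, chr10:67004798-67004857), had a level of 0.69 with PAMAM and 1.25 with saline in the bulb, 0.59 with PAMAM and 0.30 with saline in the hippocampus, and 2.03 with PAMAM and 1.91 with saline in the cortex. The differences were -0.56 ± 0.080, 0.30 ± 0.092 and 0.12 ± 0.078. Both cortical arrays lay above all 4 other arrays for Egr2, and the bulb was again the only region with a lower PAMAM value.

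Egr3 gave little. Its probe (mm9, chr14:70479222-70479281) was not well above background on 5 of the 6 arrays, and only the cortex PAMAM array was above it, at a level of -3.48 against -4.38 on the cortex saline array. By the background as subtracted in the files, the bound for Egr3 there was 1.87-fold higher with PAMAM. It is the ratio of the arrays' own values, 0.90 ± 0.47 in log2, from a very dim spot. Normexp background correction gave 0.39, a difference smaller than that bound, so the bound is no firm minimum.

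Of the Nr4a receptors, Nr4a1, known as Nur77 (probe at mm9, chr15:101105071-101105130), had a level of 5.06 with PAMAM and 5.74 with saline in the bulb, 4.92 with PAMAM and 4.76 with saline in the hippocampus, and 5.91 with PAMAM and 5.67 with saline in the cortex. The differences were -0.67 ± 0.068, 0.16 ± 0.068 and 0.24 ± 0.067. With saline the bulb and cortical Nr4a1 levels lay about as far apart as the spot noise, and with PAMAM the bulb lay clearly below the cortex.

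Nr4a2, known as Nurr1 and required for midbrain dopamine neurons, had a level of 1.52 with PAMAM and 1.87 with saline in the bulb, 3.13 with PAMAM and 3.33 with saline in the hippocampus, and 2.59 with PAMAM and 1.94 with saline in the cortex. The differences were -0.35 ± 0.077, -0.20 ± 0.071 and 0.65 ± 0.079, so Nr4a2 had the smallest bulb difference of the 8 measured members and the highest cortical one. Its 2 probes lie at chr2:56960699-56960758 and chr2:56959637-56959696 (mm9), and the second gave -0.45, -0.19 and 0.57. The probes' values followed each other over the 6 arrays (r = 0.998), and their differences were never more than 0.10 apart.

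Nr4a3, known as Nor1, was dim but was spotted 10 times on each array, which makes its spot scatter visible. Its spots in the bulb ranged between -4.76 and -3.98 with PAMAM and between -3.25 and -2.97 with saline (9 usable spots each), and the ranges did not overlap. In the hippocampus they ranged between -3.22 and -2.79 with PAMAM and between -2.91 and -2.38 with saline (10 spots each), and the ranges overlapped. Mean levels were -4.39 with PAMAM and -3.15 with saline in the bulb, a difference of -1.24 ± 0.088, and -3.03 with PAMAM and -2.67 with saline in the hippocampus, a difference of -0.36 ± 0.071. In the cortex only 4 of 10 spots were well above background with PAMAM, and by the background as subtracted in the files Nr4a3 was at least 1.81-fold lower there than with saline. For this dim gene the size depends on how background is removed. Normexp background correction gave -0.59 (bulb), -0.09 (hippocampus) and -0.11 (cortex), a cortical difference smaller than that bound.

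Npas4 was lower with PAMAM in all 3 regions. Its probe (mm9, chr19:4984356-4984415) had a level of 1.97 with PAMAM and 3.10 with saline in the bulb, 1.40 with PAMAM and 2.03 with saline in the hippocampus, and 2.38 with PAMAM and 2.79 with saline in the cortex. The differences were -1.13 ± 0.073, -0.63 ± 0.076 and -0.41 ± 0.077. Every PAMAM array lay below its saline partner by several spot-noise errors.

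Arc (mm9, chr15:74499592-74499651) had a level of 3.10 with PAMAM and 4.21 with saline in the bulb, 4.76 with PAMAM and 4.33 with saline in the hippocampus, and 5.70 with PAMAM and 5.63 with saline in the cortex. The differences were -1.11 ± 0.068, 0.43 ± 0.068 and 0.07 ± 0.067, the cortical sign turning with quantile normalisation. Arc had the highest hippocampal difference of the 8 measured members, and its bulb and hippocampal differences lay 1.54 log2 units apart with opposite signs.

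**Figure D1:**
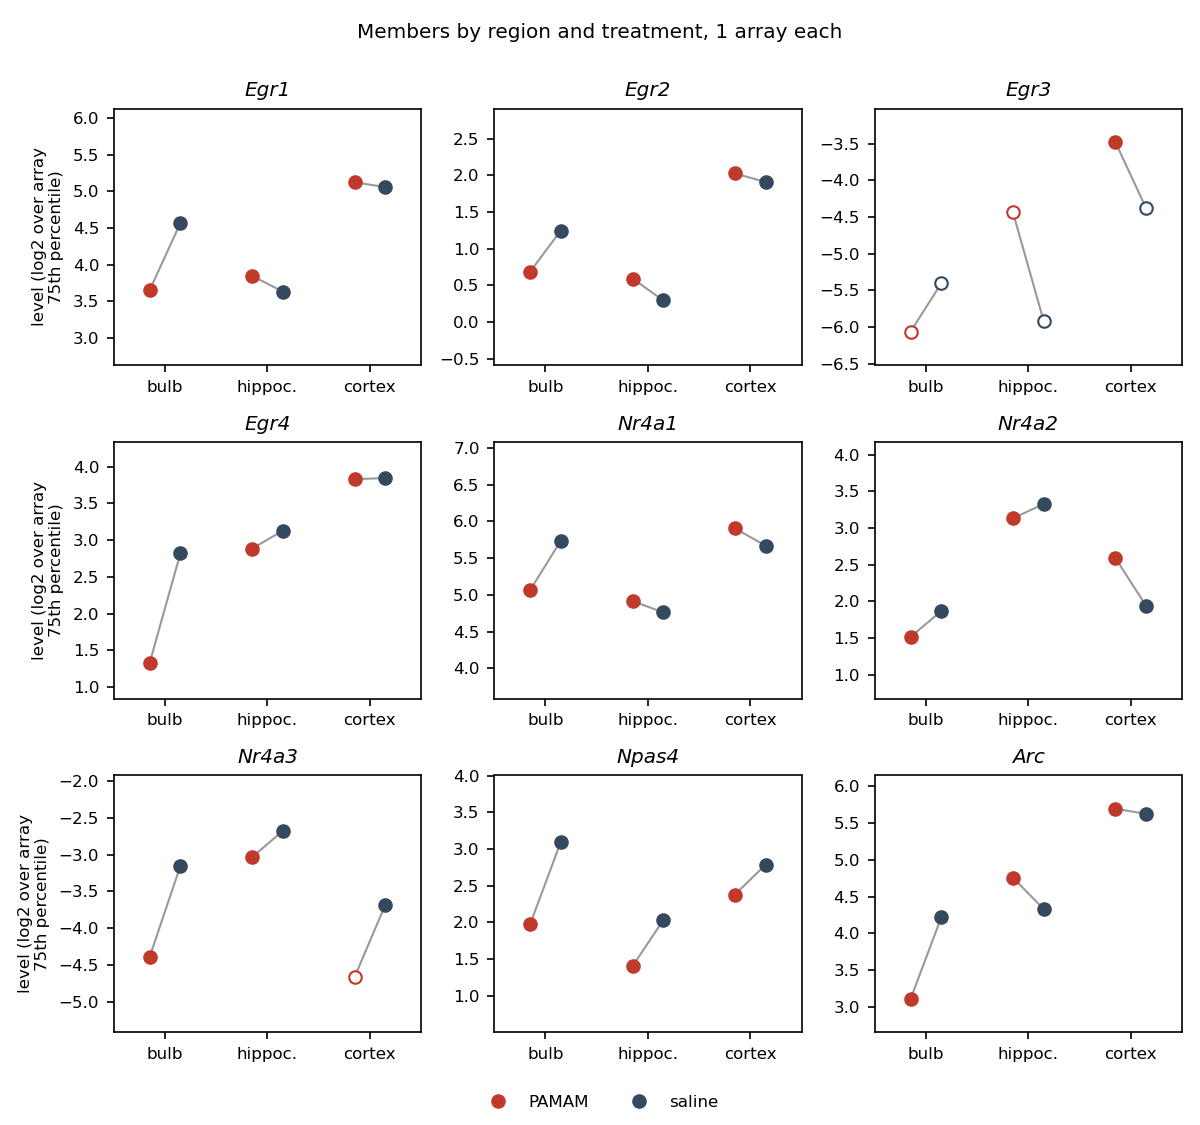
Level of each member on the 6 arrays, as log2 over the array's 75th percentile, with PAMAM at the left of saline in each region and hollow points not well above background. All panels span the same number of log2 units. In the bulb the PAMAM point lies below the saline point for every measured member, by 1.49 for Egr4 and 0.35 for Nr4a2.

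None of the 8 members measured reached a 2-fold difference in the hippocampus, where 0.0672% of 22325 measured genes were at least 2-fold lower and 0.582% at least 2-fold higher, and none of the 7 measured did in the cortex, where the shares were 0.417% and 0.352% of 21600 genes. Egr3 in the hippocampus was not measured, and the cortical bounds of Egr3 and Nr4a3 leave a 2-fold difference possible. The members' medians there, -0.02 and 0.07, stood beside medians of 0.00 and 0.02 over all measured genes. Of the members measured on all 6 arrays, 7 of 7 had their lowest difference in the bulb, which was the case for 35.5% of 21092 genes. The bulb difference minus the hippocampal one was between -0.16 (Nr4a2) and -1.54 (Arc), and the bulb difference minus the cortical one between -0.68 (Egr2) and -1.48 (Egr4).

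**Figure D2:**
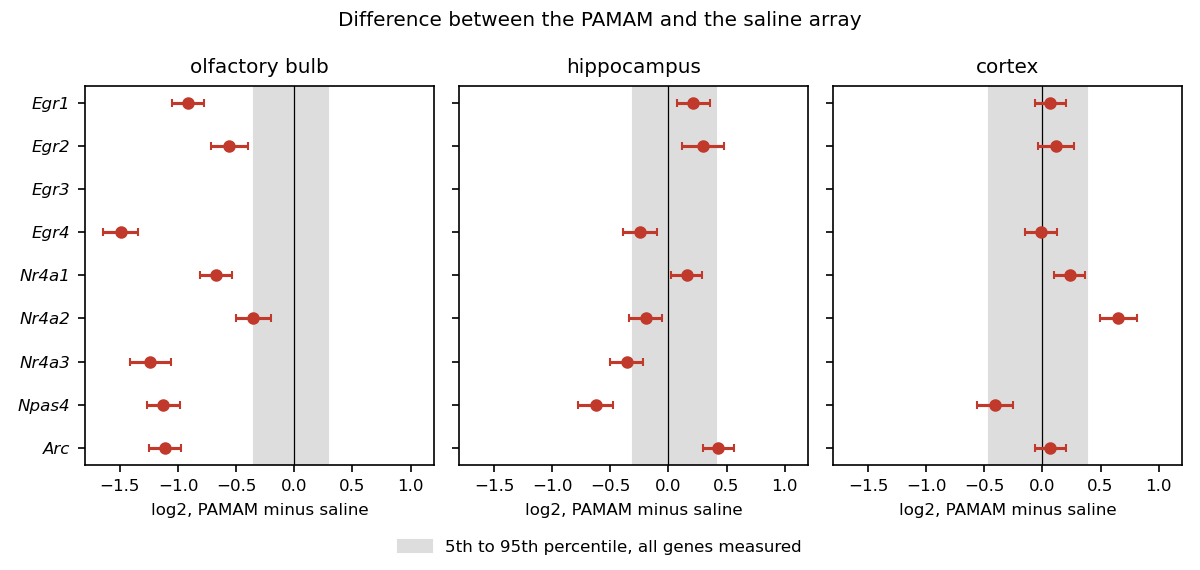
PAMAM minus saline difference of each measured member (log2) in the 3 regions. Bars are 2 spot-noise standard errors either way and hold no variation between mice, and the grey band spans the 5th to 95th percentile of all genes measured in that region. In the bulb all 8 members lie below the band's lower edge of -0.348, but Nr4a2, at -0.353, by far less than its bar. In the hippocampus and cortex most lie within the band.

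To test what can be tested with these arrays, limma was fitted to all 35331 probes detected on at least 2 arrays. Region and treatment were the terms, which left 2 residual degrees of freedom. With 1 array per region and treatment, these hold any change of the treatment difference between regions. They hold no measured spread between replicate arrays or mice, so neither do the limma SEs and p-values. Treatment over the 3 regions gave no call after Benjamini-Hochberg adjustment for any of the 8 members tested, nor for any probe (0.0% called), while 2111 probes and 2 members had an unadjusted limma p under 0.05. These 2 were Npas4, at -0.72 ± 0.17 (SE, limma, unadjusted p = 0.0136, adjusted p = 0.828), and Nr4a3, at -0.86 ± 0.20 (limma, unadjusted p = 0.0138, adjusted p = 0.828). Both were lower on 3 of 3 PAMAM arrays. The Nr4a3 average includes a cortical PAMAM value not well above background, and it was -0.26 with normexp background (limma, adjusted p = 0.843). The other members, whose differences changed size or sign between regions, had averages between -0.58 (Egr4) and 0.03 (Nr4a2).

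Between regions, 4 differences of members passed the test. Nr4a2 was lower in the bulb than in the hippocampus, with a difference of -1.54 ± 0.29 (SE) on its brighter probe (limma, adjusted p = 0.0290) and -1.42 ± 0.28 on the other (limma, adjusted p = 0.0333). It was the 1 of 8 members called in that comparison, in which 32.1% of probes were called. Arc was lower in the bulb than in the cortex (-2.00 ± 0.42, limma, adjusted p = 0.0353), as were Egr4 (-1.76 ± 0.41, limma, adjusted p = 0.0445) and Egr2 (-0.999 ± 0.24, limma, adjusted p = 0.0481). These were 3 of 8 members, beside 34.8% of all probes. None of 8 was called between cortex and hippocampus, where 3.98% of probes were, and Egr2 came nearest with 1.52 ± 0.24 (limma, adjusted p = 0.0652). In that comparison 6 of the 8 members had an unadjusted limma p under 0.05, as had 8013 of the 35331 probes. Read against those percentages, the numbers of members called do not set them apart from probes at large. The calls of Arc and Egr4 were lost with quantile normalisation, without a detection filter and with an intensity trend, that of Egr2 with the first and second of these, and that of Nr4a2 without a filter.

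The order of regions differed among members. Egr1, Egr2, Egr4 and Arc were highest in the cortex under both treatments, and Nr4a2 and Nr4a3 were highest in the hippocampus under both. Egr1, Nr4a1 and Npas4 changed their order between PAMAM and saline, 3 of the 8 members compared. Taking the range of a region's PAMAM and saline arrays as its spread, all 3 regions were apart for Egr2, Egr4, Nr4a2 and Arc. Some gaps were only about as wide as the spot noise. Nr4a2 reached 1.87 in the bulb and began at 1.94 in the cortex (limma, adjusted p = 0.198). Egr4 reached 2.82 in the bulb and began at 2.88 in the hippocampus (limma, adjusted p = 0.169). Egr2 reached 0.59 in the hippocampus and began at 0.69 in the bulb (limma, adjusted p = 0.183). The bulb range overlapped the hippocampal one for Egr1 and Npas4, and the cortical one for Nr4a1, Nr4a3 and Npas4.

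Npas4, Egr and Nr4a genes are textbook targets of CREB, which binds the cyclic AMP response element, and of serum response factor, which binds the CArG box. Upstream sequences of members are printed below for their letters, and the part of these factors in the members' differences was not tested. Of the 9 members 6 were matched in RefSeq promoter windows (GRCm38.p6), and the 250 bases before each start were searched. Each line below holds the stretch between the outermost matches with its flanks, 5′ to 3′ on the gene's strand. Capitals mark the core letters TGACG of the response element on either strand (CGTCA on the other) and, in Egr2 alone, the CArG box.
Npas4 (chr19:4990116-4990170, - strand): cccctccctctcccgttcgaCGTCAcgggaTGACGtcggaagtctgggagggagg
Egr4 (chr6:85513674-85513786, - strand): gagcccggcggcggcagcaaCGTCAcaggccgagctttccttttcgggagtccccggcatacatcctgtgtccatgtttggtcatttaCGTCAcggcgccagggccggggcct
Nr4a1 (chr15:101266596-101266830, + strand): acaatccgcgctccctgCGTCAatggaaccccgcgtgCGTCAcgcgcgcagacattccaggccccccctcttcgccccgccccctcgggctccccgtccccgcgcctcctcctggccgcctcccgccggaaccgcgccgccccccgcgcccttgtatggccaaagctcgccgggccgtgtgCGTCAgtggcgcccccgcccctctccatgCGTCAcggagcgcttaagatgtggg
Nr4a2 (chr2:57124090-57124223, - strand): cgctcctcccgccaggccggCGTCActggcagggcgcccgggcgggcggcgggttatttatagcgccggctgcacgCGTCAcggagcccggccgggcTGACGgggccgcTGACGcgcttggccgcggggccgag
Nr4a3 (chr4:48045055-48045182, + strand): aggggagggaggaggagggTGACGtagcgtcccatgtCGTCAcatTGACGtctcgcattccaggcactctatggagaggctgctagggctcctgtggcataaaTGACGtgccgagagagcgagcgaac
Egr2 (chr10:67537738-67537838, + strand): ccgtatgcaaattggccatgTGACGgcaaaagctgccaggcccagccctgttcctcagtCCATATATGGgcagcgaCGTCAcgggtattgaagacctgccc

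The core letters occurred in all 6 matched genes, against 17.8% of 32851 windows and 19.8% of 27025 genes in that table. Nr4a1, Nr4a2 and Nr4a3 held 4 cores each, a number reached by 0.137% of windows. Npas4 and Egr4 held 2 each, and Egr2 held 2 in the window shown, a number reached by 3.90% of windows. The full element TGACGTCA was in none of the 6, and in 1.55% of windows. A CArG box was found in Egr2 and in 1.47% of windows. The Egr protein's own site GCGNGGGCG was found in Nr4a1 and Nr4a2, and in 4.70% of windows. The Nr4a site AAAGGTCA was found in none of the 6, and in 1.34% of windows. Egr2 had 5 windows, and 3 of them held the core letters. Each motif was searched on both strands, and a match describes the letters only. Because these genes are already known as CREB targets, the shares are no test of the set. They are over all windows and were not matched for base composition.

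Other genes of the same response did not all follow the members. Of 35 other immediate-early genes, 33 were measured in the bulb, with 18 higher and 15 lower and a median of 0.03. Those at least 2-fold lower were Junb (-3.77 with PAMAM, -2.41 with saline, difference -1.36), a partner in AP-1 dimers, and Fos (0.89 with PAMAM, 1.93 with saline, difference -1.04), its usual dimer partner and a classic marker of activity. In the hippocampus 24 were higher and 9 lower with a median of 0.18, and in the cortex 23 were higher and 8 lower with a median of 0.23. Among the list's genes measured on both cortical arrays, Maff, a small Maf factor, was the 1 at least 2-fold different, at -2.27 with PAMAM and -3.65 with saline, a difference of 1.38. Junb in the bulb and Maff in the cortex were dim. They lay below the median level of detected probes, which was -1.17 (PAMAM) and -0.88 (saline) in the bulb. In the cortex it was -0.64 (PAMAM) and -0.61 (saline). The size of such differences can depend on how background is removed, and their normexp values are not given here.

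Genes that neurons transcribe later after activity lay on the higher side in all 3 regions. In the bulb 11 of 12 measured were higher, with a median of 0.18, against 8 of 8 members lower. In the hippocampus 10 of 11 were higher (median 0.32), with the activin subunit gene Inhba higher by 1.18 and the prohormone convertase gene Pcsk1 by 1.02. In the cortex 11 of 11 were higher (median 0.48), with Inhba higher by 1.30, the cyclooxygenase gene Ptgs2 by 1.06 and the pentraxin gene Nptx2 by 1.05. The 23 upstream factors and partners of the members, all measured in each region, had medians of -0.04 (bulb), 0.05 (hippocampus) and 0.06 (cortex), and none was 2-fold different. At 1 array a group these lists are described and not tested.

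**Figure D3:**
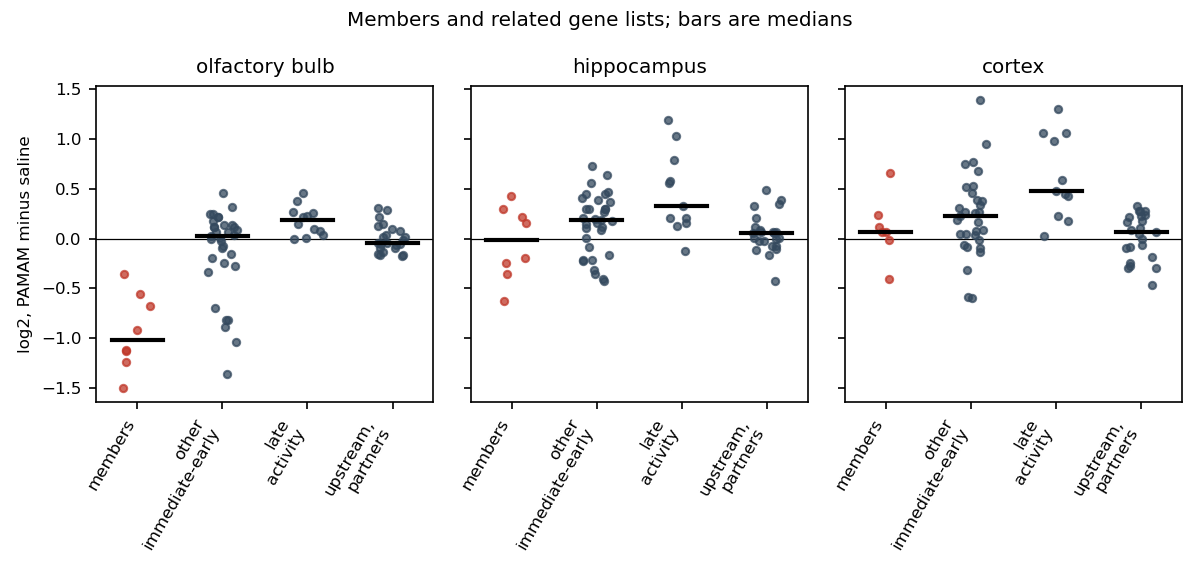
PAMAM minus saline differences (log2) of measured genes in 4 groups, namely the members, other immediate-early genes, late activity-regulated genes, and upstream factors with partners. Each point is 1 gene, points are spread sideways for visibility, and bars are medians. The bulb median is -1.01 for the members, 0.03 for other immediate-early genes, 0.18 for late genes and -0.04 for upstream factors.

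In the bulb the 12 marker lists of cell types had medians between -0.17 (striatal neurons) and 0.32 (thalamic neurons). The thalamic median, with 3 of 4 measured markers higher, lay above the 95th percentile of all genes measured there, 0.290. The 13 bulb neuron markers, 4 higher and 9 lower, summed to 237 times the 75th percentile with PAMAM and 240 with saline. All 13 were higher in the bulb than on average in the other regions, under each treatment, as were 9 of 9 hippocampal and 8 of 9 cortical markers in their own regions. Sums here run over every marker of a list on the array, measured or not, and bright probes weigh most in them. The choroid plexus sums are mostly Ttr, at a log2 level of 7.95 with PAMAM and 7.27 with saline in the hippocampus. Markers of other tissue also differed in the hippocampal and cortical comparisons. In the hippocampus 6 of 8 measured cortical neuron markers were higher with PAMAM (median 0.17, sum 43.7 with PAMAM and 40.6 with saline). In the cortex 9 of 12 measured bulb neuron markers were lower (median -0.21, sum 21.6 with PAMAM and 21.9 with saline). In the hippocampus 11 of 11 choroid plexus markers were higher with PAMAM (median 0.82, sum 280 with PAMAM and 173 with saline), as were 5 of 5 red cell markers (median 0.55, sum 65.8 with PAMAM and 45.6 with saline) and 4 of 4 measured thalamic markers (median 0.88, sum 6.32 with PAMAM and 3.25 with saline). In the cortex 8 of 8 measured choroid plexus markers were higher (median 1.22, sum 24.3 with PAMAM and 5.07 with saline), as were 9 of 9 markers of meninges and fibroblasts (median 0.89, sum 18.4 with PAMAM and 9.64 with saline), 4 of 4 measured red cell markers (median 0.59, sum 71.8 with PAMAM and 46.3 with saline) and 5 of 6 hippocampal markers (median 0.37, sum 30.5 with PAMAM and 22.4 with saline). The regions' own neuron markers lay on the lower side, with 8 of 9 hippocampal markers lower in the hippocampus (median -0.23, sum 56.2 with PAMAM and 67.6 with saline) and 7 of 9 cortical markers lower in the cortex (median -0.05, sum 63.8 with PAMAM and 67.7 with saline). In the cortex 7 of 7 microglia markers were higher (median 0.17, sum 138 with PAMAM and 131 with saline), and 5 of 6 endothelial ones (median 0.26, sum 18.0 with PAMAM and 15.0 with saline). In the hippocampus 6 of 7 oligodendrocyte markers were higher (median 0.17, sum 245 with PAMAM and 217 with saline). The part of these markers in the members' differences was not tested in any region.

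Genes whose 3 differences lay nearest to the members' median differences of -0.91, 0.16 and 0.07 were sought among 21085 genes detected on all 6 arrays. Those with a symbol were Lrrc2 (distance 0.15), Cfap45 (0.22), Slpi (0.22), Atf3 (0.27), Nrg1 (0.27) and Jchain (0.28), and 2 of the nearest 8 probes have no gene name. Lrrc2, a leucine-rich repeat gene, differed by -0.85 (bulb), 0.29 (hippocampus) and 0.10 (cortex). Atf3, a stress-inducible transcription factor of the other immediate-early list, differed by -0.89, 0.20 and 0.34. Of the 7 members on all arrays, Egr1 lay nearest to the median (0.06) and Npas4 farthest (0.94).

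Over the 6 arrays, the genes whose levels followed the members' mean profile most closely were Nrg1 (r = 0.960), Impa2 (0.947), B430316J06Rik (0.941), Dusp2 (0.938) and Lin28b (0.937), out of 4421 genes with a range of at least 1 log2 unit. Nrg1 encodes neuregulin, a ligand of ErbB receptors, and was near the members by both measures. The arrays share a slide and fall into 3 regions, so these coefficients hold differences between regions as well as between treatments. Among members, Egr1 and Egr2 followed each other (r = 0.98) and so did Egr4 and Arc (r = 0.96), while Nr4a2 ran against Npas4 (r = -0.56).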

How the data were processed

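Each of the 6 arrays (Agilent) holds 62976 spots, 59305 of them non-control. The deposited files give spot intensity from Agilent Feature Extraction 10.7.3.1, per the file headers, with background already subtracted in the processed signal. RNA on each array was pooled from 6 experiments, and labelled with Cy3, per the labels' protocols. All arrays share 1 slide. The authors also deposited log2 values, with column medians between -0.0906 and 0.0432. Set against the scanner values these are the same 75th-percentile-scaled log2 values centred on each probe's median (r between 0.999867 and 0.999966 over 29549 probes), and what stays unknown is the handling of repeated spots and any filter.

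Here log2 of the processed signal minus each array's 75th percentile was used. The percentile lay between 452.0 and 709.6, between 34134 and 39057 spots were well above background, and no spot was saturated. Outlier spots were dropped and spots of a probe averaged. Each gene took the values of its brightest probe on average. Names came from the files and were updated through RefSeq accessions (27235 of 55681 probes matched, 2838 symbols changed). Spot noise came from 399 probes spotted 10 times, whose median SD was between 0.080 and 0.095. The number of arrays limits precision.

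Limma 3.58.1 in R 4.3.3 (lmFit, eBayes, Benjamini-Hochberg over all probes) was tested on simulated data. Python 3.11.15 did the rest. Groups came from the labels. The text names all members, list genes at least 2-fold different in a region (at most 4 by size per list and region, pathway lists only), the 8 genes nearest in response and the 5 nearest in profile. For a bound, the dim array took whichever was larger of its own value and its lowest well-above-background signal. The members and lists were chosen with earlier results of these data known. Alternatives were normexp (offset 50) on mean signal and local background, quantile normalisation, the authors' table, other detection filters, an intensity trend, other probe rules and leaving out a region.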

Additional observations from a re-analysis of the deposited data

Results flagged for a closer look

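The PAMAM minus saline difference had opposite signs in different regions, beyond 2 spot-noise errors either way, for 5 members. With 1 array a group the difference between regions was not tested. In the olfactory bulb Egr1 was at -0.91 and in the hippocampus at 0.22, and Egr2 was at -0.56 in the bulb and at 0.30 in the hippocampus. Arc was at -1.11 in the bulb and 0.43 in the hippocampus. Nr4a1 was at -0.67 in the bulb but higher with PAMAM elsewhere, at 0.16 in the hippocampus and 0.24 in the cortex. Nr4a2 was at -0.35 in the bulb and -0.20 in the hippocampus, but at 0.65 in the cortex.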

How the results depend on the processing

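In the bulb 39 of 39 alternative values of single members kept their sign, and over all regions 110 of 113 did. Many of these could hardly differ. The brighter-gene setting repeats the main value, as does the median of all probes for a gene with 1 probe. The authors' table holds the same scaled values, centred by probe. The normexp and quantile values, which could differ, were also negative for all 8 members measured in the bulb. The members' bulb median was -0.80 with normexp background and -0.91 over brighter genes only. The hippocampal median turned to 0.030 with normexp and 0.16 over brighter genes, and the cortical median to -0.021 with quantile normalisation. Members called between bulb and hippocampus (1 as reported) numbered 3 with normexp, 3 with quantile normalisation, 3 with an intensity trend, 2 with detection on all 6 arrays and 0 without a detection filter. Between bulb and cortex (3 as reported) they numbered 1 with the trend, 0 with quantile normalisation and 0 without a filter. Between cortex and hippocampus (0 as reported) they numbered 4 with normexp, 3 with the trend and 1 with detection on all 6 arrays. The cause was not tested. Of the values for single members, 295 were counted as unchanged, 5 moved beyond their spot-noise error, 16 gained a call and 9 lost one. The 295 include tested values with no call in either setting whose sign turned. They also include the values that repeat the main one. Without the bulb arrays the treatment averages of Egr1 (0.14), Egr2 (0.21), Nr4a1 (0.20) and Arc (0.25) turned from negative to positive. Those of Egr4, Nr4a3 and Npas4 stayed negative, and that of Nr4a2 stayed positive. With normexp the Nr4a3 bulb minus cortex difference turned from 0.40 to -0.12. The treatment test compared PAMAM and saline within regions. Pairing by animal was not possible because the labels give no replicate numbers and each group is 1 array. Dim signal limits Egr3 on 5 arrays and Nr4a3 in the cortex.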

Other observations

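Members of the AP-1 family went different ways within a region, and the genes in this paragraph other than Fos and Junb were chosen after their values were seen. In the cortex Fosb was at 1.06 with PAMAM and 0.38 with saline, a log2 difference of 0.68, and Fosl2 was at 1.97 with PAMAM and 1.23 with saline, a difference of 0.75. Fos was at 1.33 with PAMAM and 1.65 with saline there, a difference of -0.32, and Junb, a dim gene, differed by -0.58. In the hippocampus Fosb differed by 0.56 and Fos by -0.36. In the bulb Fosb (-0.82), Fos and Junb were all lower with PAMAM, while Jun was at 3.19 with PAMAM and 2.74 with saline, a difference of 0.45. Btg2, an antiproliferative gene, was lower in all 3 regions, with differences of -0.81 (bulb), -0.43 (hippocampus) and -0.59 (cortex), the same signs as Npas4. Its average over the regions was -0.61 ± 0.10 (SE, limma, unadjusted p = 0.00447, adjusted p = 0.828), which was not called. The differences within a region have no test, since each group is 1 array.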
